A study of Xenopus tropicalis with 12 samples.

Results

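The 69 genes described here are larval genes of the tadpole intestine that wild-type animals turned down at the climax of metamorphosis and that animals without thyroid hormone receptors kept on. They were chosen from their own read counts among 19921 Ensembl gene IDs. Counts were divided by a size factor for each library, the median over genes of its ratio to the geometric mean of all libraries, which gives normalised counts. In wild-type tadpoles the mean had to reach 100 at stage 54 and to be at least 8-fold lower at stage 61. In tadpoles without the receptors, the means at stage 61 and at stage 54 each had to reach 0.5 times the wild-type mean at stage 54, and the stage 61 mean had to stay under 2 times their own stage 54 mean. These genes are called the kept larval genes below. Since all 12 libraries entered this choice, the levels and differences that follow describe the genes and test nothing about them.

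Thyroid hormone (T3) acts through a pair of nuclear receptors, TRα and TRβ, which bind target genes with or without the hormone. Without T3 they generally recruit corepressors, and with T3 they recruit coactivators. In the frog intestine, T3 drives the replacement of the larval absorptive epithelium, which dies by apoptosis at climax, by an adult epithelium that arises from newly formed stem cells. Genes whose RNA is abundant before metamorphosis and scarce at climax are of interest in this setting and are called larval genes here. No adult intestine was sequenced, so whether these genes are also expressed after metamorphosis was not tested.

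Poly-A-selected RNA of whole Xenopus tropicalis intestine was sequenced from TRDKO tadpoles (TRα-/- TRβ-/-) at stage 61 and stage 54 and from wild-type tadpoles (TRα+/+ TRβ+/+) at stage 61 and stage 54, with 3 libraries in each of these 4 groups. Stage 54 is premetamorphic and stage 61 is the climax, and the labels name no hormone treatment for these samples. The TRDKO tadpoles came from parents lacking TRα and carrying one mutant TRβ allele, and a pair of TRβ deletion lines was in use in the study. The study's account of its RNA extraction for qRT-PCR combined tissue of several animals of a genotype. Its account of the sequencing does not say whether those samples were pooled in the same way, nor which line gave the RNA, and ages are not given in the sources used here. TRDKO tadpoles stop developing at stage 61 and later die, whereas wild-type tadpoles pass through it. In RNA from a whole organ, fewer cells of a type and less RNA per cell cannot be told apart.

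Total counts lay between 20112705 and 37936503 per library. The IDs are not paired with gene names in the deposited counts, and 0 of the 19921 matched the gene table used here, so names, functions, positions and sequences of the genes, the levels of TRα and TRβ and markers of cell types were not analysed here. Within 3 of the groups, and between TRDKO stage 54 replicates 1 and 2, the counts of a pair of libraries differed by little more than counting noise (in chi-square tests of each gene, a median statistic 1.17 to 1.93 times the one that counting noise alone gives). TRDKO stage 54 replicate 3 stood apart from both of its group's other libraries (30.4 and 35.0 times). Several of the counts and fitted differences that use this library are given with and without it. The counts of overlapping libraries are given only with it. The study calls the libraries biological replicates, and as each may hold several animals, p-values measure only the spread between these libraries. In the main fits, all groups shared a single estimate of the spread for each gene. Standard errors and p-values given for wild-type tadpoles therefore also include the spread of TRDKO stage 54 replicate 3.

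The choice narrowed as follows. The wild-type mean at stage 54 reached 100 normalised counts for 9194 genes, and 462 of these were at least 8-fold lower at stage 61. In TRDKO tadpoles, 217 of the 462 (47.0%) already lay under 0.5 times the wild-type level at stage 54. Another 171 (37.0%) were above that limit at stage 54 and under it at stage 61. The limit was met at both stages by 74 genes. Of these, 5 more than doubled in TRDKO tadpoles between the stages and were set aside, which left the 69 kept larval genes, 14.9% of the 462. All of these counts used size factors, and the split of the 462 was not repeated with library totals alone. In the 69 genes, library totals raised the median ratio of TRDKO to wild type at stage 54 from 1.08 to 1.61. How many of the 217 would stay under the limit was therefore not tested.

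The size of this group rested on how the libraries were scaled. Size factors were 0.916 to 1.30 in TRDKO libraries at stage 61, 0.762 to 1.31 in TRDKO libraries at stage 54, 1.13 to 1.91 in wild-type libraries at stage 61 and 0.511 to 0.741 in wild-type libraries at stage 54, although the totals of the groups overlapped. With library totals alone in place of size factors, 37 genes met the limits and 25 of the 69 were among them. Of the 44 genes lost, 41 fell less than 8-fold in wild-type tadpoles, 2 had a wild-type stage 54 mean under 100 and 1 failed both limits. The limits set on TRDKO tadpoles removed 0. Over all 69 genes the fall then had a median of 6.78-fold and a smallest value of 3.38-fold. With TMM scaling, another method that allows for unequal composition, 66 genes met the limits and 64 were among the 69.

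As a group, the kept larval genes took a far larger share of the counts in TRDKO tadpoles at both stages and in wild-type tadpoles before metamorphosis than in wild-type tadpoles at climax. In TRDKO libraries they held 2.56%, 2.56% and 2.59% of all counts at stage 61 and 2.79%, 2.79% and 4.57% at stage 54. In wild-type libraries they held 0.297%, 0.295% and 0.296% at stage 61 and 1.97%, 1.97% and 1.97% at stage 54. These shares need no size factor, but they rest on library totals, the scaling under which fewer genes met the limits. At stage 61 the mean share was 8.69 times as large in TRDKO as in wild-type tadpoles. In wild-type tadpoles it was 6.65-fold lower at stage 61 than at stage 54. The highest value of all belonged to TRDKO stage 54 replicate 3.

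**Figure D1:**
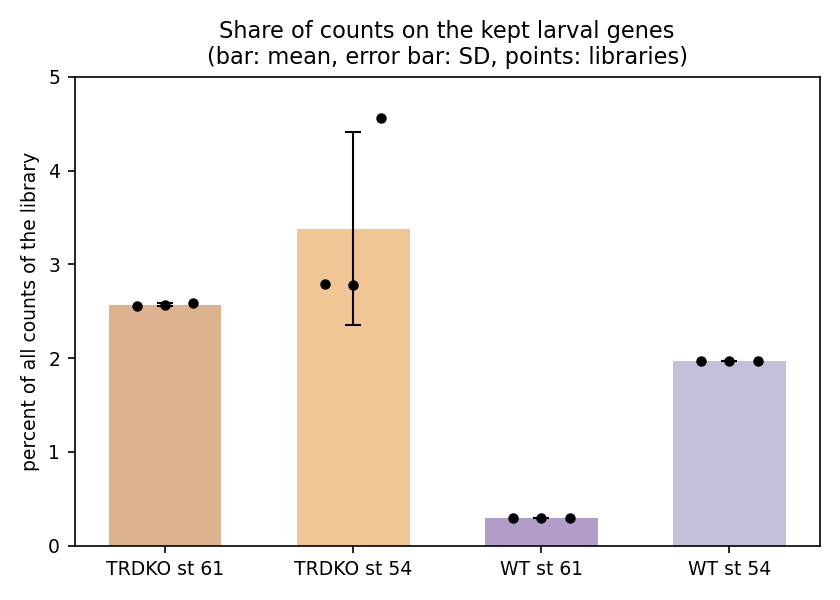
Percent of all counts of each library that fell on the 69 kept larval genes, by group, with bars for the mean, error bars for the SD of 3 libraries and points for the libraries. The wild-type libraries at stage 61 lie near 0.3% and all other libraries at 1.97% or above, with TRDKO stage 54 replicate 3 at 4.57%.

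The share was concentrated in few genes. The 3 genes with the most counts in each group were not the same in every group. They held 52.7% of the normalised counts of the 69 genes in TRDKO tadpoles at stage 61 and 52.2% at stage 54. In wild-type tadpoles they held 63.1% at stage 61 and 58.2% at stage 54. In TRDKO replicates 1 and 2 of stage 54 the share was 48.1%. Both TRDKO groups had 2 of their 3 leading genes in common with wild-type tadpoles at stage 54. Per gene, the mean in wild-type tadpoles at stage 54 ranged from 111 to 267409 normalised counts, with a median of 1760.1. Of the 69 genes, 42 reached 1000 and 14 reached 10000. These are counts without correction for transcript length, so they do not rank the genes by number of transcripts.

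By a fixed rule on their levels, 4 of the genes are given by ID with every library. They are the gene with the highest wild-type mean at stage 54 and the gene with the largest fall in wild-type tadpoles, once among the 12 genes whose mean was higher at stage 61 than at stage 54 in TRDKO tadpoles and once among the 57 whose mean was lower.

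ENSXETG00000005315 had the highest mean of the 69 genes in every group except wild-type tadpoles at stage 61, where it came second. In TRDKO tadpoles it had 179561, 178815 and 179168 normalised counts at stage 61 and 213774, 214679 and 385758 at stage 54. In wild-type tadpoles it had 11536, 11474 and 11332 at stage 61 and 263848, 267395 and 270982 at stage 54. Every TRDKO library lay more than 10-fold above every wild-type library at stage 61, and the TRDKO libraries at stage 61 lay below all libraries of stage 54. Replicate 3 was the only TRDKO library at stage 54 above the wild-type libraries of that stage. The means were 179181 ± 373 in TRDKO at stage 61, 271404 ± 99035 in TRDKO at stage 54, 11447 ± 105 in wild type at stage 61 and 267409 ± 3567 in wild type at stage 54 (SD, n = 3 each). The fitted log2 difference between stage 61 and stage 54 was -0.60 (standard error 0.18) in TRDKO tadpoles, and -0.26 without TRDKO stage 54 replicate 3, against -4.51 (0.21) in wild-type tadpoles. The difference between TRDKO and wild-type tadpoles at stage 54 was 0.04 on the log2 scale, -0.30 without replicate 3 and 0.60 with library size alone.

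ENSXETG00000011266 had the largest fall in wild-type tadpoles, 876-fold. In TRDKO tadpoles it had 19372, 19700.4 and 18836 normalised counts at stage 61 and 65198, 63527 and 37088 at stage 54. In wild-type tadpoles it had 30.3, 34.6 and 32.7 at stage 61 and 27424, 28782 and 29253 at stage 54. The 4 groups did not overlap, and TRDKO libraries lay above wild-type libraries at both stages. In TRDKO tadpoles the gene was also lower at stage 61 than at stage 54, with a log2 difference of -1.53 (standard error 0.17), and -1.74 without replicate 3, against -9.73 (0.25) in wild-type tadpoles. The TRDKO mean at stage 61 was 0.349 times the TRDKO mean at stage 54 and 0.300 times the mean of its replicates 1 and 2. The TRDKO mean at stage 61, 19303 ± 437 (SD, n = 3), stood at 0.678 times the wild-type mean at stage 54, 28486 ± 949 (SD, n = 3).

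ENSXETG00000026447 had the most counts among the 12 genes whose TRDKO mean was higher at stage 61 than at stage 54. It had 60956, 59903 and 60037 normalised counts in TRDKO tadpoles at stage 61 and 46888, 47829.5 and 81906 at stage 54. In wild-type tadpoles it had 9142, 8347 and 9657 at stage 61 and 83938, 78914 and 80855 at stage 54. Replicates 1 and 2 of TRDKO stage 54 lay below the TRDKO libraries of stage 61 and replicate 3 lay above them, among the wild-type libraries of stage 54. The log2 difference between stage 61 and stage 54 was 0.03 (standard error 0.17) in TRDKO tadpoles, and 0.34 without replicate 3. In wild-type tadpoles it was -3.13 (0.19), and the fall of 8.98-fold placed the gene close to the limit of 8.

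ENSXETG00000032881 had the highest level in TRDKO tadpoles relative to wild-type tadpoles at stage 54. It had 2232, 2255 and 2263 normalised counts in TRDKO tadpoles at stage 61 and 3055, 3059.9 and 102 at stage 54. In wild-type tadpoles it had 3.03, 0 and 2.65 at stage 61, from 5, 0 and 3 reads, and 244, 224 and 256 at stage 54. TRDKO stage 54 replicate 3 thus lay below every wild-type library of its stage, whereas the other 2 TRDKO libraries of that stage lay more than 10-fold above them. The TRDKO mean at stage 54, 2072 ± 1706 (SD, n = 3), stands for none of its libraries. At stage 61 the TRDKO libraries averaged 9.32 times the wild-type mean of stage 54, the highest such ratio of the 69 genes. The log2 difference between stage 61 and stage 54 was 0.12 (standard error 0.76) in TRDKO tadpoles and -0.45 without replicate 3, against -7.00 (1.51) in wild-type tadpoles, where it rests on the few reads at stage 61.

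**Figure D2:**
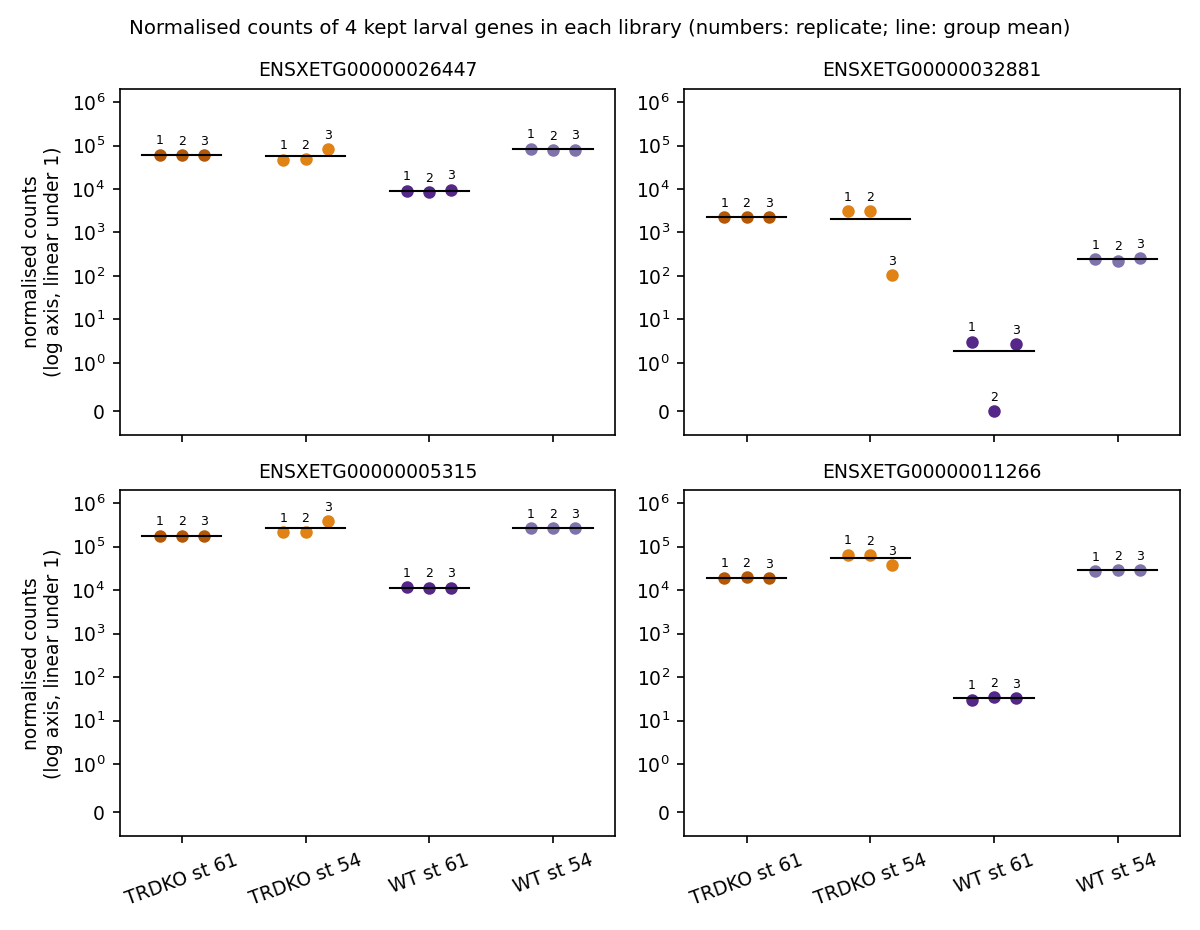
Normalised counts (log axis, linear under 1) of the 4 genes given by ID in each library, with points numbered by replicate and lines for the group means. The wild-type libraries at stage 61 are the lowest for each gene, and TRDKO stage 54 replicate 3 lies apart from replicates 1 and 2 for each gene, above them in both genes on the left and below them in both on the right.

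In wild-type tadpoles, the fall at stage 61 had a median of 16.1-fold over the 69 genes, with quartiles of 9.73-fold and 26.0-fold. It reached 16-fold in 35 genes, 32-fold in 13 and 100-fold in 5. The wild-type mean at stage 61 was under 100 normalised counts for 34 genes and under 10 for 7, so the RNA of most genes was reduced but still counted. The 34 genes with a fall under 16-fold kept a median of 155 normalised counts at stage 61. For the 13 genes with a fall over 32-fold, the TRDKO level at stage 61 had a median of 1.08 times the wild-type level at stage 54. For the 22 genes with a fall of 16-fold to 32-fold this median was 0.658, and for the 34 genes below it was 0.723. Both measures were limited by the choice and share the wild-type level at stage 54, so no relation is read from these medians.

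In TRDKO tadpoles at stage 61, the level had a median of 0.763 times the wild-type level at stage 54 (quartiles 0.619 and 1.12, highest 9.32). It lay below 0.75 times that level in 34 genes, above it in 22 genes and at 2 times or more in 6. Whether the kept level lay below or above that of the premetamorphic wild-type intestine depended on the scaling. With library size alone, the median was 1.14 times the wild-type level at stage 54, and 41 genes lay above it and 28 below. Every TRDKO library at stage 61 lay above every wild-type library at stage 54 for 20 genes and below all of them for 43, while the libraries overlapped for 6. With library size alone, 37 genes lay above, 17 below and 15 overlapped. With size factors, among all 13954 genes tested, 46.9% lay above and 41.5% below in the same way. These shares were not counted with library size alone, so nothing is read from the counts under that scaling. Within the TRDKO libraries of stage 61 the spread was small, with a median coefficient of variation of 2.53% over the 69 genes.

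**Figure D3:**
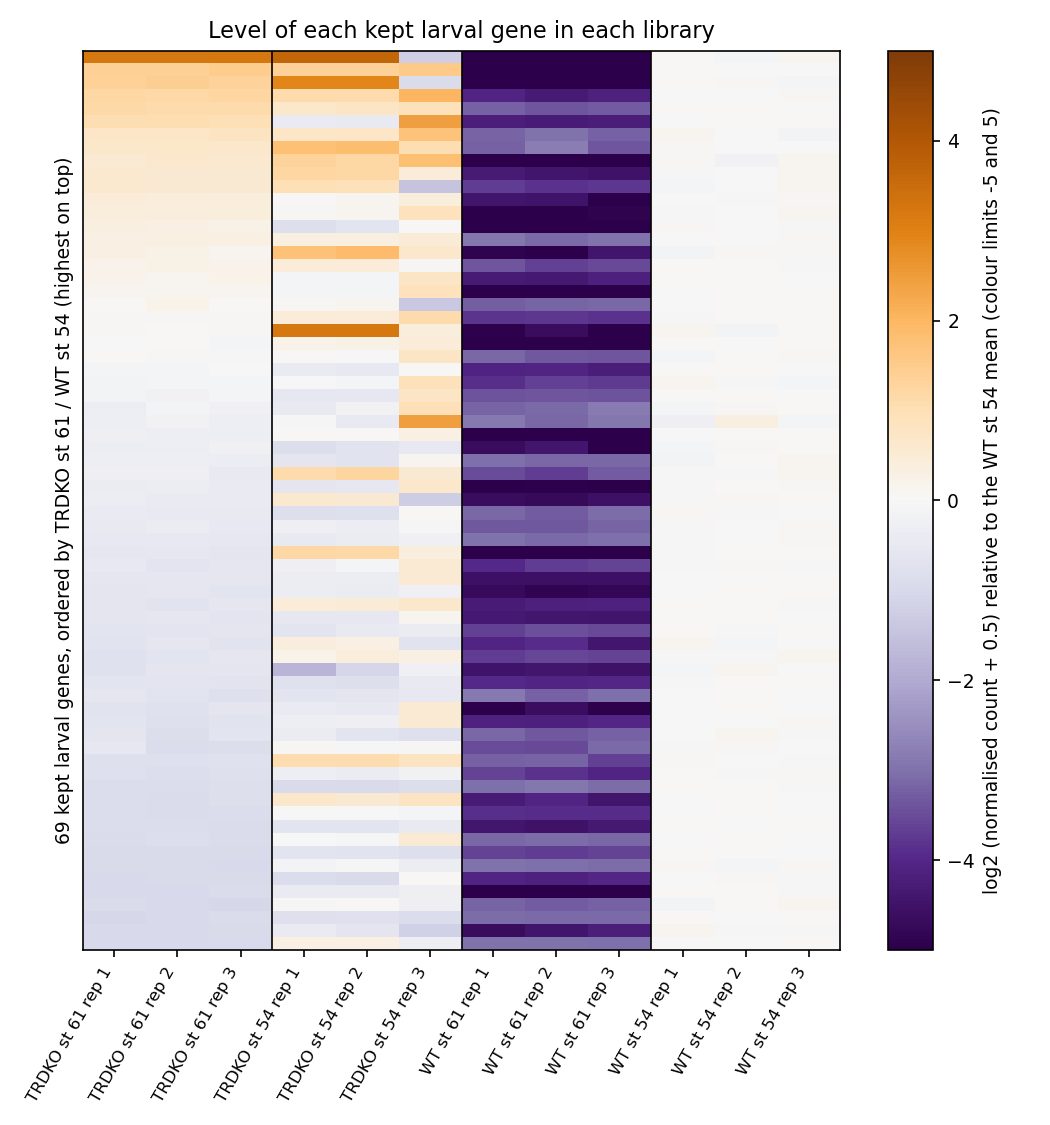
Level of each of the 69 kept larval genes (rows, ordered by the TRDKO stage 61 mean relative to the wild-type stage 54 mean) in each of the 12 libraries (columns), as the log2 of the normalised count plus 0.5 relative to the wild-type stage 54 mean. Brown marks a higher and purple a lower level. The 3 wild-type libraries at stage 61 are purple in every row, the TRDKO libraries at stage 61 pass from brown at the top to pale purple at the bottom (with library size alone 41 of the 69 means, in place of 22, lie above the wild-type stage 54 mean), and TRDKO stage 54 replicate 3 differs from replicates 1 and 2 in many rows.

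Between the stages, most of these genes had a modestly lower mean at stage 61 than at stage 54 in TRDKO tadpoles. The stage 61 mean was below the stage 54 mean in 57 genes and above it in 12. The ratio of these means had a median of 0.793 (quartiles 0.589 and 0.945, lowest 0.155, highest 1.65). The ratio lay between 0.8 and 1.25 in 28 genes and under 0.5 in 10. The median log2 difference between stage 61 and stage 54 over the 69 genes was -0.34 in TRDKO tadpoles and -3.97 in wild-type tadpoles. Over all 13954 genes tested these medians were 0.00 and 0.13. The rule capped a rise in TRDKO tadpoles at 2-fold but allowed a decline as deep as the limit on the stage 61 level, so the balance of lower and higher means was not free of the choice. Against the mean of TRDKO stage 54 replicates 1 and 2 alone, the stage 61 mean was higher in 21 genes, with a median ratio of 0.842, with 31 genes between 0.8 and 1.25 and 10 under 0.5, and against replicate 3 alone in 14, with a median ratio of 0.714.

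At stage 54, the level in TRDKO tadpoles relative to wild-type tadpoles depended on the library. The TRDKO mean over all 3 libraries exceeded the wild-type mean in 41 of the 69 genes, with a median ratio of 1.08. With library size alone it did so in 61 genes, with a median ratio of 1.61. With size factors, replicate 1 exceeded it in 31 genes, replicate 2 in 30 and replicate 3 in 43. The ratio was at least 2 in 12 genes and at least 4 in 3. In these 3 genes, replicates 1 and 2 averaged 7.43 to 12.7 times the wild-type mean, whereas replicate 3 lay at 0.423 to 1.31 times. Among the 12 genes, replicates 1 and 2 averaged 2 times the wild-type mean or more in 9 and replicate 3 reached it in 7, with 4 genes in common. The TRDKO level at stage 61 exceeded the wild-type level of stage 54 in 10 of these 12 genes, in 10 of the 29 genes with a ratio of 1 to 2 at stage 54, and in 2 of the 28 genes with a ratio under 1. With the stage 54 ratio taken from replicates 1 and 2 only, it did so in 9 of 12, 9 of 19 and 4 of 38 genes. Both ratios share the wild-type level at stage 54, and the choice capped the rise between the stages in TRDKO tadpoles. No relation is therefore read from these counts.

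**Figure D4:**
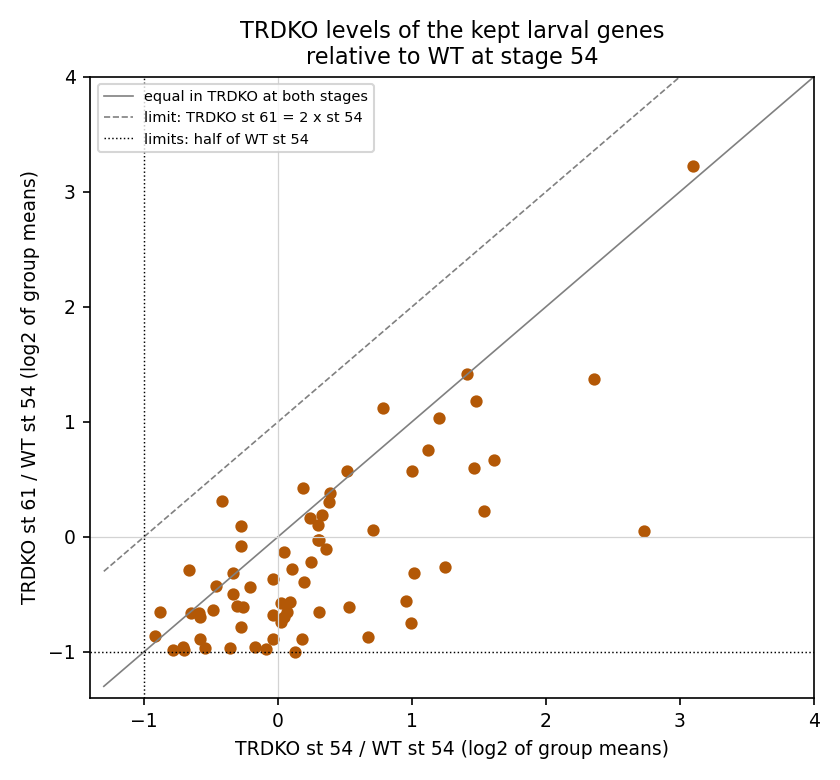
Group means of the 69 kept larval genes in TRDKO tadpoles at stage 61 (vertical axis) and at stage 54 (horizontal axis), each relative to the wild-type mean at stage 54, on log2 scales. Points are genes, the solid line marks equal levels at both stages, and the dashed and dotted lines mark limits of the choice. Of the 69 points, 57 lie below the solid line and 22 lie above 0 on the vertical axis. With library size alone these counts are 55 and 41.

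Replicate 3 of TRDKO stage 54 moved many of the genes. It lay above both other libraries of its group in 46 genes and below both in 22. It was over 2-fold away from the mean of replicates 1 and 2 in 14 genes (20.3%), at 2 times or more in 6 and at 0.5 times or less in 8. Among all 9194 genes with a wild-type stage 54 mean of at least 100, it was this far away in 10.5%. The share was 28.7% among the 171 larval genes under the TRDKO limit only at stage 61. It was 29.5% among the 217 already under it at stage 54. The coefficient of variation in TRDKO tadpoles at stage 54 had a median of 27.0% over the 69 genes, against 2.53% in TRDKO tadpoles at stage 61, 6.93% in wild-type tadpoles at stage 61 and 3.80% in wild-type tadpoles at stage 54. The part of this library in the levels of TRDKO tadpoles at stage 54 was measured by leaving it out. The rule then gave 63 genes, all of them among the 69. Of the 6 genes lost, 3 crossed the 8-fold limit on the wild-type fall, which they had passed by less than 1%, through the recomputed size factors. In 2 the TRDKO mean at stage 61 came to 2.03 and 2.73 times the stage 54 mean, and in 1 the TRDKO mean at stage 54 came to 0.382 times the wild-type mean.

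**Figure D5:**
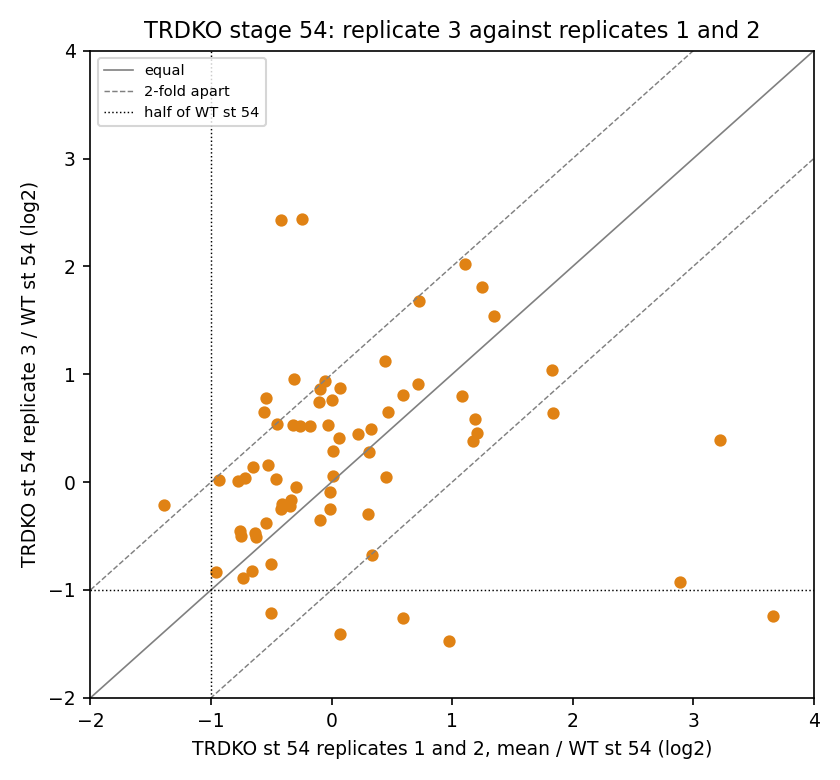
TRDKO stage 54 replicate 3 (vertical axis) against the mean of replicates 1 and 2 (horizontal axis) for the 69 kept larval genes, each relative to the wild-type stage 54 mean, on log2 scales. Dashed lines mark a 2-fold distance, beyond which 14 genes lie, and dotted lines mark 0.5 times the wild-type level.

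The choice was also repeated on the means of 2 libraries of each group and read in the library left aside. Chosen without the third replicates, 63 genes met the limits. In the third replicates, 58 of them fell at least 8-fold in wild-type tadpoles, 62 kept the level at stage 61 and 59 kept it at stage 54 in TRDKO tadpoles, and 52 met the whole rule. Chosen without the second replicates, 54 of 67 genes met the whole rule in the second replicates. Chosen without the first, 55 of 73 did so in the first replicates. Except in pairs with TRDKO stage 54 replicate 3, a left-aside library was close to a recount of its group. The median chi-square statistic of such pairs was 1.17 to 1.93 times that of counting noise. These counts therefore show how steady the levels were between these libraries and are no independent test of the choice. In the full data, 60 of the 69 genes had each of the 6 TRDKO libraries at 0.5 times the wild-type stage 54 mean or higher.

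Genes near the limits were common for 2 of the 5. The fall in wild-type tadpoles was within 10% of the limit in 13 genes, and so was the TRDKO level at stage 61 in 13. The TRDKO level at stage 54 was that close in 2 genes, and the remaining limits in 0. The smallest falls inside the limit were 8.02-fold and 8.03-fold, and the nearest genes outside fell 7.95-fold and 7.86-fold. The lowest TRDKO levels at stage 61 inside were 0.501 and 0.504 times the wild-type stage 54 mean, and the nearest outside were 0.498 and 0.494 times. At stage 54 the lowest TRDKO levels inside were 0.531 and 0.543 times, and the single gene outside that met every other limit had 0.498 times. The lowest wild-type stage 54 means inside were 111 and 124 normalised counts, and the nearest outside were 74.9 and 73.0. For the ratio of stage 61 to stage 54 in TRDKO tadpoles, the highest inside were 1.65 and 1.29 and the lowest outside were 2.47 and 2.95.

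All 69 genes passed the filter on low counts and were tested among 13954 genes with edgeR's quasi-likelihood test, called at an adjusted p under 0.05 and a difference over 2-fold. The choice used each of these contrasts, so the counts of calls describe the genes. Its limits kept TRDKO means from lying over 2-fold below wild type at stage 54, apart from differences in scaling. They likewise kept them from rising over 2-fold between the stages. The counts of 0 below were thus set by the choice, and so was the size of the differences behind both counts of 69. Between stage 61 and stage 54, 10 of the 69 were called lower in TRDKO tadpoles (14.5%, against 11.98% of all genes tested). In wild-type tadpoles, 69 were called lower (21.2% of all genes tested). Called higher at stage 61 in TRDKO tadpoles were 0 of the 69 by edgeR and 0 by DESeq2, against 12.5% of all genes tested, and 3 had an unadjusted p under 0.05 in edgeR. Between TRDKO and wild-type tadpoles, 69 were called higher in TRDKO at stage 61 (14.1% of all genes tested) and 12 at stage 54 (17.4%, against 21.7% of all genes tested). Called lower in TRDKO at stage 54 were 0 of the 69 by edgeR and 0 by DESeq2, against 12.01% of all genes tested. In that direction, 20 had an unadjusted p under 0.05 in edgeR. For these 20, as for the 3 above, no fold threshold applied. The share of all genes with such a p was not counted, so the percentages beside them are no measure for them. The difference in stage effect between the genotypes was called at an adjusted p under 0.05 alone, with no fold threshold. By this criterion 67 of the 69 were called, all higher in TRDKO tadpoles, against 30.03% of all genes tested.

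The overlap of the libraries was counted for the same comparisons. Between the stages, every TRDKO library at stage 61 lay below every TRDKO library at stage 54 for 33 of the 69 genes (30.1% of all genes tested) and above for 3 (32.7% of all genes tested), and the libraries overlapped for 33. In wild-type tadpoles, every stage 61 library lay below every stage 54 library for all 69 (42.6% of all genes tested). At stage 61, every TRDKO library lay above every wild-type library for all 69 (38.8% of all genes tested). At stage 54, every TRDKO library lay above every wild-type library for 19 (34.9% of all genes tested) and below for 17 (33.2% of all genes tested), and the libraries overlapped for 33. Since the rule used these libraries, nothing is read from these counts.

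Set beside the larval genes that missed the limits in TRDKO tadpoles, the kept genes differed in level as the choice required. They also had fewer wild-type counts at stage 54, with a median of 1760.1 normalised counts. This median was 4303 in the 171 genes under the limit only at stage 61 and 4706 in the 217 already under it at stage 54. The fall in wild-type tadpoles was similar in size in the 3 sets, with medians of 16.1-fold in the kept genes, 14.9-fold in 170 of the 171 (the wild-type stage 61 mean of the remaining gene was 0) and 18.6-fold in the 217. No test was made of these distances. The limits on the wild-type level and on the fall were the same for the 3 sets. However, the limits on TRDKO levels were fractions of the wild-type level at stage 54. The lower wild-type counts of the kept genes were therefore not free of the choice. The TRDKO level at stage 61 relative to the wild-type level at stage 54 had a median of 0.763 in the kept genes, 0.207 in the 171 and 0.111 in the 217. In the 217 it reached 0.972. Relative to the wild-type level at stage 61, the medians were 11.99 in the kept genes, 3.37 in 170 of the 171 and 2.04 in the 217. By these medians, a TRDKO level above wild type at climax was thus not particular to the kept genes. The lower quartile was 2.09 in 170 of the 171 and 0.931 in the 217, so part of the 217 lay below wild type. These ratios used size factors and were not computed with library totals alone in the 171 and the 217. The 5 genes set aside more than doubled between the stages in TRDKO tadpoles. At stage 61 they had 1.57 to 10.2 times the wild-type level at stage 54 and 20.1 to 1854 times the wild-type level at stage 61.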

How the data were processed

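Intestinal RNA of 12 libraries was analysed, 3 for each genotype and stage, grouped by the titles in the labels. The authors mapped the reads with STAR 2.6.1c to the Ensembl genome, counted them per gene with featureCounts 1.6.3 and deposited raw counts without normalization. The strand setting and the treatment of reads on several genes are not given in the sources used here, so overlapping genes and genes with near-identical copies have uncertain counts. The kit was stranded, and the authors tested with DESeq2.

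Normalised counts were counts divided by median-of-ratios size factors, computed over the 12983 genes with a count in all 12 libraries. A gene with 0 counts could have had up to 3, equal to 1.57 to 5.87 normalised counts by library, from counting error only. All libraries were fitted in one model with a mean per genotype and stage (edgeR 4.0.16 in R 4.3.3, filterByExpr, TMM, Benjamini-Hochberg adjustment over 13954 genes). Standard errors were derived from the test, as the absolute log2 difference divided by the square root of its F statistic. The fit and the rule were tested on simulated data. Alternatives were DESeq2 1.42.0, RLE factors, library size alone, no filter, the libraries of a comparison only, a replicate block, no fold threshold, other limits of the rule, group medians and each library left out. The reading of left-aside libraries, the ratios of the 69 genes with library size alone and their counts with TRDKO stage 54 replicates 1 and 2 only were added after the data were seen. The genes given by ID are, among genes whose mean rose and among genes whose mean fell between the stages in TRDKO tadpoles, the one with the highest wild-type stage 54 mean and the one with the largest wild-type fall. Gene lists by symbol were not analysed here, since no ID could be paired with a name. The members and lists were chosen with earlier results of these data known.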

Additional observations from a re-analysis of the deposited data

Results flagged for a closer look

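In edgeR's interaction contrast (adjusted p under 0.05), 67 of the 69 kept larval genes had a higher stage effect in TRDKO than in wild-type tadpoles, against 30.03% of all 13954 genes tested. The choice of the genes favoured this direction, though it set no upper limit on the TRDKO level at stage 54, so the count is a description. The 2 remaining genes had log2 estimates of 2.31 (standard error 1.03) and 1.46 (0.95). Their TRDKO stage 54 replicate 3 lay at 0.140 and 6.45 times the mean of replicates 1 and 2, and without it all 69 were called.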

How the results depend on the processing

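The number of kept larval genes was 63 to 71 with each library left out in turn, and 54 of the 69 were found in each of these 12 sets. It was 60 with group medians, 66 with TMM scaling and 37 with library size alone. Other limits gave 183 genes with a 4-fold and 35 with a 16-fold fall in wild-type tadpoles, and 157 and 33 with TRDKO levels of at least 0.25 and 0.75 times the wild-type level at stage 54. Without the fold threshold, the genes called at stage 61 against stage 54 in TRDKO tadpoles were 3 higher and 33 lower, and those called in TRDKO against wild-type tadpoles at stage 54 were 21 higher and 17 lower. With library size alone, 20 genes were higher in TRDKO at stage 54, in place of 12. This scaling moved the median log2 difference of all genes between TRDKO and wild-type tadpoles at stage 54 to 0.69, against 0.13 with TMM, and between the stages in wild-type tadpoles to 1.33, against 0.13. With each library left out in turn, 0 to 2 genes were called higher at stage 61 in TRDKO tadpoles and 0 to 1 lower in TRDKO at stage 54. Those lower at stage 61 in TRDKO tadpoles were 9 to 11, and those higher in TRDKO at stage 54 were 10 to 13. The other counts of calls stayed within 1.5 times of those reported. Shares of all genes tested were counted for the main fits only. The counts of calls at other settings are therefore not set against all genes, and nothing is read from their size.

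In TRDKO tadpoles, small differences changed sign. With each library left out in turn, the log2 difference between the stages was -0.11 to 0.34 for ENSXETG00000026447 and -0.45 to 0.51 for ENSXETG00000032881, and that between the genotypes at stage 54 was -0.30 to 0.19 for ENSXETG00000005315. With library size alone, ENSXETG00000026447 had a log2 difference of 0.11 between TRDKO and wild-type tadpoles at stage 54, in place of -0.45. The cause was not tested.

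Replicate numbers did not pair the libraries, since deviations of same-numbered libraries from their group means correlated at -0.064 to 0.095 in 18 pairs. With the replicate block, 69 genes were called lower at stage 61 in wild-type tadpoles, 9 lower at stage 61 in TRDKO tadpoles and 11 higher in TRDKO at stage 54. The shares of all genes called were not counted with this block.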
